A study of Mus musculus with 8 samples.

Results

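The genes described here are those by which a cell reads oxygen: the hypoxia-inducible factor (HIF) subunits Hif1a, Epas1 and Arnt, the prolyl hydroxylases Egln1, Egln2 and Egln3, the ubiquitin ligase component Vhl, and the HIF target genes Vegfa, Bnip3 and Ndrg1. They were chosen by name, with earlier results of these data known, and all 10 were found by symbol among the 37980 gene rows of the table. RNA had been sequenced from multipotent progenitors (MPPs) sorted from mouse bone marrow, with 4 libraries from mice that carry the NUP98-HOXA10hd fusion (NA) and 4 from wild-type (WT) mice. Each library carries its group name and its number in the titles (NA1 to NA4, WT1 to WT4). The comparison asks how the RNA of NA MPPs differs from that of WT MPPs.

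The NA mice were NA LSL/+; Vav-Cre animals on C57BL/6, in which the fusion is expressed from the Rosa26 locus after Cre, driven by the blood-cell promoter Vav, has removed a stop cassette. The fusion joins the nucleoporin NUP98 to the homeodomain of HOXA10, and Vav-Cre acts in blood cells at large and not in MPPs alone. The WT mice were age-matched C57BL/6 (CD45.2) mice, and the sources used here state no Cre in them and give no ages. Cells of both groups were gated as lineage-negative, CD48-negative, CD150-negative and positive for c-kit, Sca1 and CD135, and the cDNA of 1000 cells was amplified for each library. Neither the labels nor the methods say whether the 4 libraries of a group came from separate animals, so p-values measure the spread between these libraries, which may be technical.

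In normal oxygen the prolyl hydroxylases (PHD1, PHD2 and PHD3, encoded by Egln2, Egln1 and Egln3) hydroxylate HIF alpha subunits, and the von Hippel-Lindau protein (VHL) then binds the hydroxylated form and brings it to an elongin-cullin ubiquitin ligase for degradation. When oxygen falls, the alpha subunits escape, pair with ARNT and bind hypoxia response elements near genes for glycolysis, angiogenesis and mitophagy. Bone marrow is a low-oxygen tissue, and Hif1a and Vhl are both known from mouse knockouts to bear on the quiescence of blood stem cells. Since control of HIF alpha is largely at the protein, the messenger RNA levels below are not a reading of HIF activity or of oxygen.

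Of the 10 genes, 2 rose in NA MPPs, none fell and 8 did not pass the test. Vhl, which marks HIF alpha for destruction, rose 3.54-fold, and the stress-response gene Ndrg1 rose 1.47-fold. The values are normalised counts (expected read counts of a gene over a size factor of its library). They were tested by limma on log2(value + 1) in genes that reached 10 of them in 4 or more libraries, and a gene was called when its p, adjusted over all genes tested, was below 0.05. None of the other 8 genes reached an unadjusted p below 0.05 by limma. The 2 calls are 20.0% of the 10 genes, beside 17.9% of the 11451 genes tested by limma, 10.1% higher and 7.87% lower, so the share called was near the background. All 10 passed the filter on low values. The groups did not overlap for 2 genes that were higher and 1 that was lower in NA, as they did not for 22.0% of all genes tested. The median log2 fold change of the 10 genes was 0.21 against -0.01 for all genes tested, with 7 values above 0 and 3 below as deposited, and 6 above and 4 below when libraries were scaled to equal totals.

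**Figure D1:**
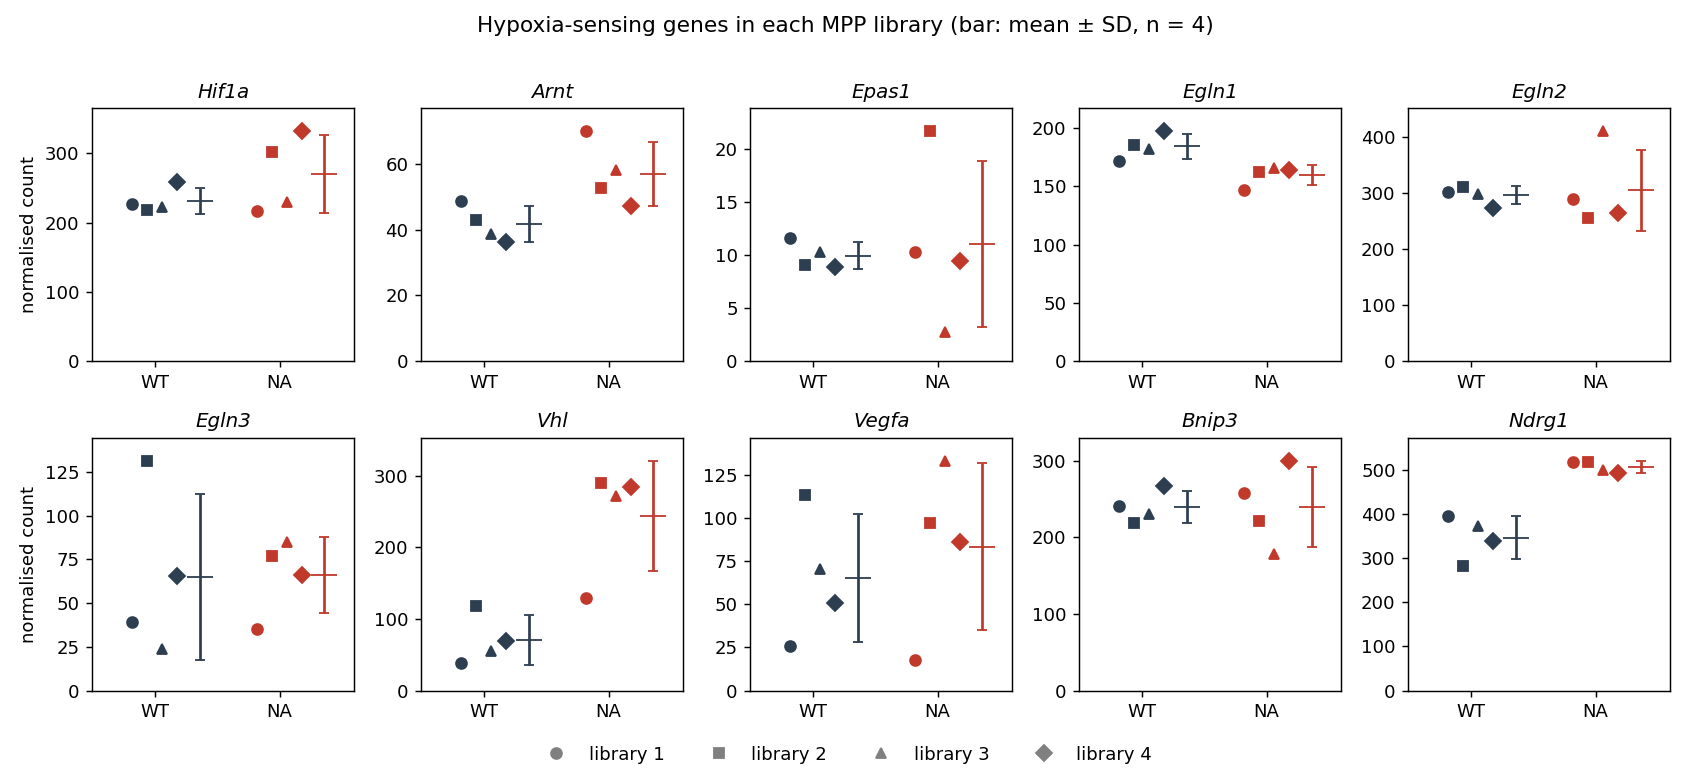
Normalised count (linear axis from 0, a separate scale in each panel) of the 10 hypoxia-sensing genes in each library, with WT MPP in dark blue, NA MPP in red, the marker shape giving the library number, and the bar at the right of each group its mean ± SD (n = 4). Vhl and Ndrg1 were higher in NA than in any WT library, Egln1 was lower, and in the other 7 panels the groups overlap.

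Promoter sequence was taken from RefSeq for build GRCm38.p6, as the 250 bases before an annotated transcription start, and windows were found for 8 of the 10 genes. There was no window for Epas1 or Ndrg1. The core of the hypoxia response element was searched as ACGTG or GCGTG on both strands, where CACGT and CACGC are the same words on the other strand. Overlapping matches were each counted, so 1 CACGTG gives 2 matches. At least 1 match was in 8 of the 10 windows of these genes, which belong to 7 genes, beside 38.6% of all 32851 windows. Shown are the window of Vhl, the gene with the largest fold change of the 10, and those of Egln1 and Bnip3, which are textbook HIF targets. They are printed 5′ to 3′ on the gene's own strand, with matches in capitals.
Vhl (chr6:113623744-113623993, plus strand): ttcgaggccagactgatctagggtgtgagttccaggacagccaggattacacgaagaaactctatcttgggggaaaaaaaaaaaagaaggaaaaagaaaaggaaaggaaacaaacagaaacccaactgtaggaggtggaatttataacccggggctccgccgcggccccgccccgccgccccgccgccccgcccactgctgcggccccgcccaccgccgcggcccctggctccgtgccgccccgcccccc
Egln1 (chr8:124949255-124949504, minus strand): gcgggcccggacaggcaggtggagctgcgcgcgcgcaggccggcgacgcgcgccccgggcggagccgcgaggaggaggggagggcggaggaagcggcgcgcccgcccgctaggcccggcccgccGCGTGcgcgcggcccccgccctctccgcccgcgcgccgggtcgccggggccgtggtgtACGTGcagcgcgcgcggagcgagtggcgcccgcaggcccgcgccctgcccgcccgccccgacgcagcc
Bnip3 (chr7:138909507-138909756, minus strand): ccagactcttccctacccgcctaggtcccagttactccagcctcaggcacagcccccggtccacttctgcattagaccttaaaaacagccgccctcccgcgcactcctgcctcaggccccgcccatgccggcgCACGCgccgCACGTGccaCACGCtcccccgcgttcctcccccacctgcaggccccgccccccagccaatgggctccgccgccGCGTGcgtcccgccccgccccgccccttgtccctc
The Vhl window held 0 matches. Egln1 held 2, which began 126 and 68 bases before the start, a number reached by 16.7% of all windows. Bnip3 held 5, as did or exceeded 1.01% of all windows, with 4 of them between 117 and 99 bases before the start and the last at 35. Those at 108 and 107 overlap in 1 CACGTG. Of the rest, Hif1a held 3 (2 of them overlapping in 1 CACGTG), Arnt 1 and Egln3 1, Egln2 held 1 and 4 in its windows, and Vegfa held 2 and 0. The Hif1a window, the Egln2 window with 1 match and the Vegfa window with 2 lie wholly inside the annotated spans of their genes. The Vegfa window at the 5′ end of the gene held 0, so Vegfa is among the 7 genes only through its internal window. A match is a description of the letters and not a bound site.

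A few facts of the libraries touch all values. The libraries held an estimated 3876908 to 4916947 reads and from 14080 to 15086 genes above 0.5 normalised counts. Hoxa10, whose reads do not separate the fusion from the native gene, lay between 298 and 371 in NA and between 129.6 and 149 in WT, apart in the direction of the labels. Xist was at 2.8 or less in NA libraries and between 869 and 1285 in WT libraries, while the Y-linked Ddx3y was at 281 to 668 in NA and at 0.888 or less in WT, so genotype and sex cannot be told apart. None of the 10 genes is on X or Y. NA4 correlated with a weighted sum of the other 3 NA libraries at r = 0.988, and WT4 with that of the other 3 WT libraries at r = 0.994 (9000 genes). The highest r with a single library of the group was 0.979 for both. For the other libraries the weighted sum gave 0.964 to 0.980, nearly the same as their best single library. NA4 and WT4 were thus closer to a mix of their group than to any 1 library of it. The n = 4, the SDs and the p-values count them as independent libraries, which was not tested. Results are therefore also given without NA4 and WT4, where 4.58% of genes were called in place of 17.9%.

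Vhl (ENSMUSG00000033933) lies at chr6:113623959-113631633 on the plus strand of GRCm38, where GENCODE M21 annotates no overlapping gene. It encodes the substrate-binding part of the ligase that removes HIF alpha. Its normalised count was 129 in NA1, 291 in NA2, 271 in NA3 and 285 in NA4. In WT it was 38.2 in WT1, 119 in WT2, 55.8 in WT3 and 69.3 in WT4. Every NA library was above every WT library, as was so for 11.5% of all genes tested, but NA1 stood below the other NA libraries and only a little above WT2. The mean was 244 ± 77.1 in NA and 70.5 ± 34.7 in WT (SD, n = 4 each). The log2 fold change was 1.82 (SE 0.319, 95% CI 1.14 to 2.51), with an adjusted p of 0.00165 by limma. Between 43 and 309 estimated reads lay behind each value. The cDNA was amplified without molecular identifiers, so the error from sampling RNA before amplification cannot be read from these numbers. Without NA4 and WT4 the log2 fold change was 1.76 (adjusted p = 0.0225), and with each library left out in turn it stayed between 1.58 and 2.11 (adjusted p from 0.000363 to 0.0105). In bulk RNA a change in the cells within the gate and a change in RNA per cell cannot be told apart.

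The other parts of the VHL ligase, named for their role after their values were seen, did not pass the test. Elob and Eloc, the elongins that hold VHL in the complex, had log2 fold changes of 0.01 (adjusted p = 0.984) and 0.27 (adjusted p = 0.239). Cul2, the cullin scaffold, was at 167, 159.8, 97.0 and 157 in NA1 to NA4 and at 99.4, 117, 82.0 and 98.6 in WT1 to WT4. The groups overlapped through NA3, and the log2 fold change of 0.53 (95% CI 0.10 to 0.95) had an adjusted p of 0.0841. Rbx1, the RING subunit, was at -0.15 (adjusted p = 0.302).

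Ndrg1 (ENSMUSG00000005125, chr15:66929318-66969640, minus strand) is induced by hypoxia and other stresses and is known for roles in vesicle traffic and growth arrest. It was the most even of the 10 genes among NA libraries, at 517 in NA1, 518 in NA2, 499 in NA3 and 491 in NA4. In WT it was 394 in WT1, 281 in WT2, 371 in WT3 and 339 in WT4. The SD of the 4 NA values was 2.64% of their mean, and all of them were above WT1, the highest WT value. The NA mean of 506 ± 13.4 stood over a WT mean of 346 ± 49.1 (SD, n = 4 each). This gave a log2 fold change of 0.56 (SE 0.116, 95% CI 0.31 to 0.81) with an adjusted p of 0.00495 by limma. Leaving out 1 library at a time gave 0.46 to 0.62 (adjusted p from 0.00483 to 0.0199), but without NA4 and WT4 the value of 0.57 had an adjusted p of 0.0597 and was no longer called. Gm17035 and Gm2895 lie on the opposite strand of Ndrg1 and had at most 10.3 and 5.60 normalised counts, and whether the counting used strand is not given in the sources used here. The relatives Ndrg2 and Ndrg3 were not called, with Ndrg2 at an unadjusted p below 0.05 (log2 fold changes -0.63, adjusted p = 0.078, and 0.09, adjusted p = 0.533), and Ndrg4 was below the filter.

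**Figure D2:**
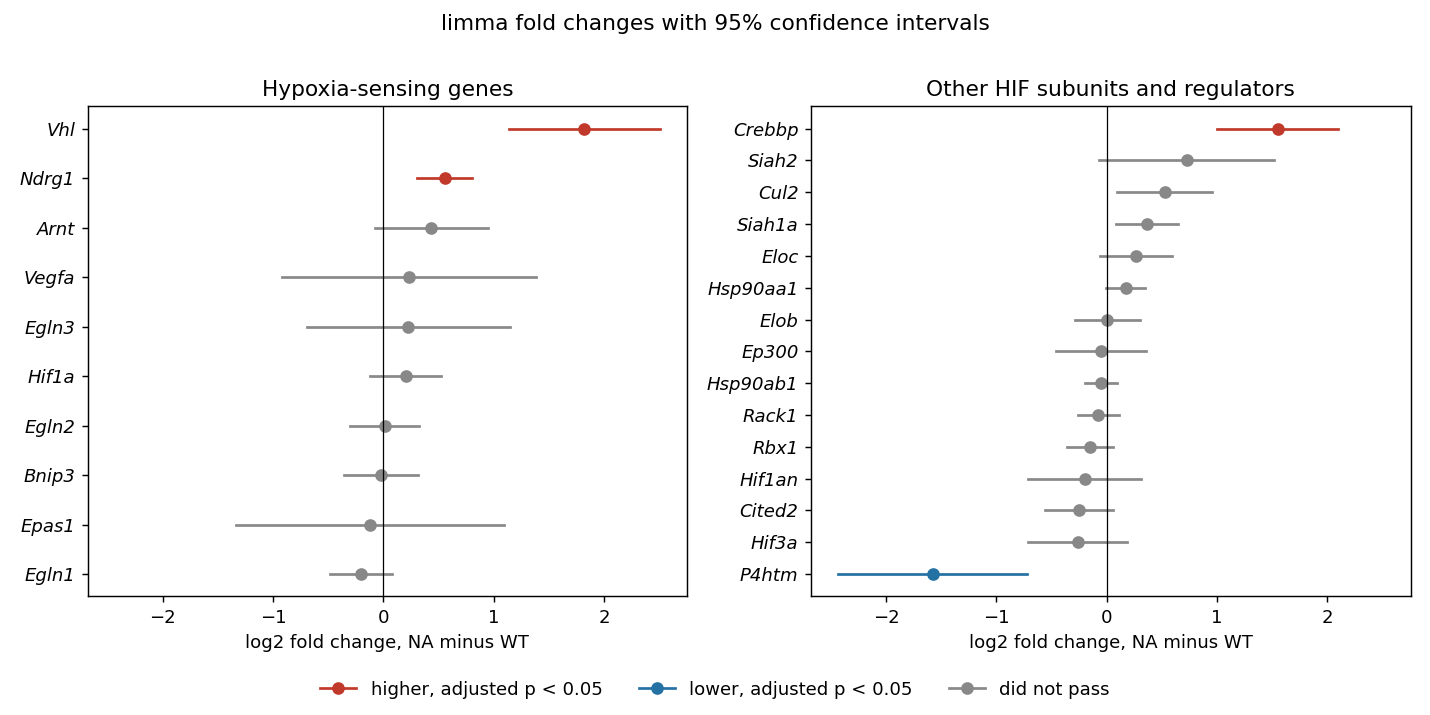
Log2 fold change, NA minus WT (points), with 95% confidence intervals from limma (lines) for the 10 hypoxia-sensing genes on the left and for the 15 tested HIF regulators on the right. Red and blue mark an adjusted p below 0.05, which was met by Vhl and Ndrg1 among the former and by Crebbp (higher) and P4htm (lower) among the latter, and grey marks the rest.

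The HIF subunits did not pass the test. Hif1a (ENSMUSG00000021109, chr12:73901375-73947530, plus strand), the alpha subunit of most cells, was at 217, 303, 229.9 and 332 in NA1 to NA4 and at 226, 219, 222 and 259 in WT1 to WT4. NA2 and NA4 were above all WT libraries and NA1 was below them, so the groups overlapped. The mean was 270.3 ± 55.9 in NA and 232 ± 18.7 in WT, and the log2 fold change of 0.20 (95% CI -0.12 to 0.52) had an adjusted p of 0.375. The antisense gene Gm15283, which spans the locus, had at most 1.18 normalised counts.

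Arnt (ENSMUSG00000015522, chr3:95434388-95497240, plus strand), the constant partner of the alpha subunits, was at 70.0, 52.6, 58.2 and 47.2 in NA1 to NA4. It was at 48.8, 43.0, 38.7 and 36.4 in WT1 to WT4. NA4 was below WT1, and the other 3 NA libraries were above all WT libraries. The log2 fold change of 0.43 (95% CI -0.08 to 0.95) had an adjusted p of 0.225, with 0 near the lower end of its interval. Epas1 (ENSMUSG00000024140, chr17:86753700-86833410, plus strand), which encodes HIF-2 alpha, was at 10.3, 21.6, 2.77 and 9.45 in NA and at 11.5, 9.06, 10.3 and 8.88 in WT. It had 3 to 23 estimated reads in a library, and a difference was not detectable at this depth (log2 fold change -0.12, 95% CI -1.34 to 1.09, adjusted p = 0.907).

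The 3 prolyl hydroxylases were not called either, and each had a pattern of its own. Egln1 (ENSMUSG00000031987, chr8:124908587-124949324, minus strand) encodes PHD2, the main oxygen sensor for HIF-1 alpha. It was at 147, 163, 165 and 164 in NA1 to NA4 and at 171, 186, 182 and 197 in WT1 to WT4. All NA libraries were below all WT libraries, as was so for 10.5% of all genes tested, yet the gap between NA3 and WT1 was small and the log2 fold change of -0.20 (95% CI -0.49 to 0.08) had an adjusted p of 0.302.

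Egln2 (ENSMUSG00000058709, chr7:27158658-27166802, minus strand), encoding PHD1, was at 290.3, 256, 411 and 265 in NA and at 303, 311, 299 and 274 in WT. NA3 stood above all WT libraries, NA2 and NA4 below them and NA1 among them (log2 fold change 0.01, 95% CI -0.30 to 0.33, adjusted p = 0.957). Egln3 (ENSMUSG00000035105, chr12:54178981-54203860, minus strand), encoding PHD3, whose own transcription is raised by HIF in many cells, was at 35.5, 77.1, 84.9 and 66.1 in NA. It was at 39.1, 131, 23.9 and 65.7 in WT, where the highest library was 5.49 times the lowest. The groups overlapped throughout, and the interval of the log2 fold change ran from -0.70 to 1.15 (estimate 0.22, adjusted p = 0.752).

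Neither of the remaining HIF targets passed the test. Vegfa (ENSMUSG00000023951, chr17:46016993-46032369, minus strand), the chief angiogenic growth factor, was at 17.7, 96.8, 133 and 86.2 in NA1 to NA4. It was at 25.8, 113, 70.6 and 50.6 in WT1 to WT4. The first library of each group was far below the others, and the spread within groups (SD 57.7% of the mean in NA and 56.9% in WT) left a log2 fold change of 0.23 with a 95% CI from -0.92 to 1.38 (adjusted p = 0.803). Bnip3 (ENSMUSG00000078566, chr7:138890836-138909519, minus strand), a receptor of mitophagy, was at 259, 221, 178 and 300.0 in NA and at 242, 219, 230.0 and 267 in WT. Its means were 239 ± 52.1 and 239 ± 20.8 (SD, n = 4 each), and the interval of its log2 fold change was -0.36 to 0.31 (estimate -0.02, adjusted p = 0.941).

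Vhl, Vegfa and Egln3, grouped here by their values, shared a part of their spread between the libraries of a group. In NA, NA1 was the lowest library for all 3, with log2 values relative to the group mean of -0.92 for Vhl, -2.23 for Vegfa and -0.89 for Egln3. In WT, WT2 was the highest for all 3, at 0.75, 0.80 and 1.01 in that order. WT1 was the lowest for Vhl and Vegfa, and WT3 was the lowest for Egln3. Others of the 10 genes shared parts of this. NA1 was also the lowest NA library for Hif1a (-0.32) and Egln1 (-0.12), and WT2 the highest WT library for Egln2 (0.07). In the other direction, NA1 was the highest for Arnt (0.30), and WT2 was the lowest for Hif1a (-0.08), Bnip3 (-0.13) and Ndrg1 (-0.30). Immediate early genes, which respond to cell handling and to signalling, moved in part alongside. Their summed level was 5821 in WT1, 17980 in WT2, 15760 in WT3 and 11090 in WT4, with WT1 lowest and WT2 highest as for Vhl and Vegfa. In NA the sum was 42570, 45450, 50120 and 42620, with NA1 close to NA4. Of 14 tested immediate early genes 11 rose in NA and none fell (78.6% higher beside 10.1% of all genes tested). The list was chosen with earlier results of these data known, so the 2 shares are a description and not a test. The median log2 fold change of the 14 was 1.47 against -0.01 for all genes tested. The 11 were led by Fos (3.37, adjusted p = 7.46e-06 by limma), Fosb (2.83), Egr1 (2.64) and Egr2 (2.40). Without NA4 and WT4 the calls of Egr2, Junb, Zfp36 and Btg2 were lost (adjusted p = 0.158, 0.155, 0.116 and 0.0944). The part of this list in the Vhl result was not tested.

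**Figure D3:**
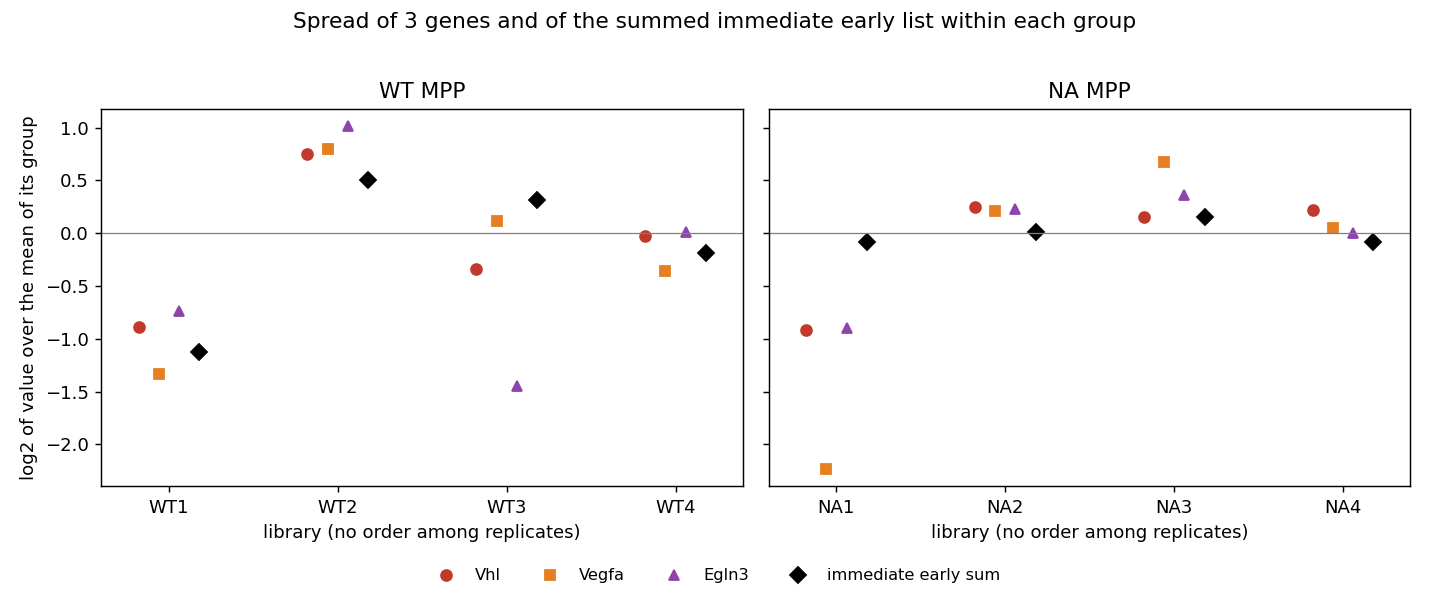
Log2 of the value in each library over the mean of its own group, for Vhl, Vegfa, Egln3 and the summed immediate early list, with WT libraries on the left and NA libraries on the right. The 3 genes were low in NA1 and high in WT2, while the summed list was low in WT1 (-1.12) and near its group mean in NA1 (-0.09).

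Levels were compared between genes per kilobase of the longest annotated coding transcript, in WT libraries (mean ± SD, n = 4). Egln2 stood at 141 ± 7.56 normalised counts per kilobase, Bnip3 at 136 ± 11.9 and Ndrg1 at 119.9 ± 17.0, and neighbours in this order had overlapping ranges. Egln1 at 51.2 ± 2.95 and Hif1a at 49.0 ± 3.97 followed, below all values of the first 3 and not apart from each other. Vhl at 25.3 ± 12.4, Egln3 at 24.4 ± 17.8, Vegfa at 18.9 ± 10.7 and Arnt at 9.65 ± 1.26 came next, each overlapping with its neighbour, and Epas1 was lowest at 1.80 ± 0.224. Per kilobase Hif1a was thus far above Epas1 in every library of either group, and Hif3a was not compared on this scale. In NA libraries Vhl stood at 87.3 ± 27.6 per kilobase and held place 4 of the 10 by its mean in place of 6, though its range overlapped with that of Hif1a. Ndrg1 had the highest NA mean at 175 ± 4.63, within the range of Egln2, which reached 195 in NA3. With the median length of coding transcripts, which counts short forms, Ndrg1 (594 per kilobase) was first and Vegfa (56.9) at place 4 in WT, Bnip3 (193) stood above Egln2 (154), and Egln1, Vhl and Egln3 moved down, so the order depends on the length taken.

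The 3 tested genes whose pattern over the 8 libraries was most like that of Hif1a were Mrpl1 (Pearson r = 0.986 of log2 values), Car2 (0.981) and Angpt1 (0.971), out of 11450 genes compared. Each had its highest value in NA4 and the next in NA2, as Hif1a did. Mrpl1 encodes a mitochondrial ribosomal protein, Car2 a carbonic anhydrase and Angpt1 the TIE2 ligand angiopoietin-1. These correlations describe 8 libraries of 2 groups and carry no test.

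Other subunits and regulators of HIF were taken as a list of 17 genes, of which 15 passed the filter, 1 rose, 1 fell and 13 were not called. The share called was 13.3%, below the 17.9% of all genes tested, and the median log2 fold change was -0.05. Crebbp, the coactivator CBP that HIF alpha recruits, was at 93.4, 135, 102.5 and 148 in NA1 to NA4 and at 45.3, 51.0, 25.1 and 41.7 in WT1 to WT4. NA values were all above WT values, and the log2 fold change was 1.55 (SE 0.256, adjusted p = 0.0011), or 1.47 (adjusted p = 0.0257) without NA4 and WT4. P4htm, a transmembrane prolyl hydroxylase that can lower HIF alpha, was at 22.4, 10.3, 6.46 and 17.7 in NA and at 36.4, 35.1, 55.8 and 37.3 in WT. NA values were all below WT values, with a log2 fold change of -1.58 (SE 0.400, adjusted p = 0.0148), and the call was lost without NA4 and WT4 (-1.76, adjusted p = 0.0823). The paralogue of Crebbp, Ep300, was at -0.05 (adjusted p = 0.880). Hif3a was at -0.26 (adjusted p = 0.407), and Hif1an, which encodes the asparaginyl hydroxylase FIH, at -0.20 (adjusted p = 0.599). Siah1a and Siah2, ubiquitin ligases that act on prolyl hydroxylases, were at 0.36 (adjusted p = 0.0704) and 0.72 (adjusted p = 0.191). Arnt2 was listed at 0 in all libraries and Cited4 did not pass the filter.

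Known HIF targets moved in both directions. Of 46 listed, 36 passed the filter, 4 rose and 5 fell (25.0% called beside 17.9% of all genes tested, median log2 fold change -0.05). Among 19 tested glycolytic genes 14 had log2 fold changes below 0 and the median was -0.21, with 1 gene higher and 4 lower (26.3% called). Hk2, the inducible hexokinase, was at 288, 317, 368 and 239 in NA1 to NA4 and at 175, 236, 167 and 179 in WT1 to WT4. All NA values exceeded WT values, though NA4 and WT2 were close (log2 fold change 0.67, SE 0.157, adjusted p = 0.00972). Hk1, the constitutive hexokinase, went the other way at -0.59 (adjusted p = 0.0417). Aldoa, an aldolase, was at 1298, 1328, 1522 and 1231 in NA and at 1845, 1768, 1867 and 1729 in WT, a log2 fold change of -0.43 (adjusted p = 0.00313). Gpi1 (-0.31, adjusted p = 0.0231) and Ldha (-0.25, adjusted p = 0.0361), for glucose 6-phosphate isomerase and lactate dehydrogenase A, also fell. The calls of Hk1, Gpi1 and Ldha were lost without NA4 and WT4 (adjusted p = 0.238, 0.134 and 0.0963) and under other alternatives, and those of Hk2 and Aldoa were kept (adjusted p = 0.0374 and 0.0416).

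Of the 26 other targets 17 passed the filter, 3 rose and 1 fell (23.5% called beside 17.9% of all genes tested, median log2 fold change 0.04). Cxcr4, the CXCL12 receptor that holds progenitors in the marrow, was at 256, 179, 184 and 208 in NA1 to NA4 and at 64.8, 54.4, 106 and 70.1 in WT1 to WT4. NA values lay well above WT values (log2 fold change 1.50, SE 0.210, adjusted p = 0.000298). Ccng2, a cyclin linked to cell-cycle exit, was at 1032, 1007, 1099 and 1114 against 624, 668, 698 and 673, and its groups did not overlap (log2 fold change 0.67, SE 0.0831, adjusted p = 0.000114). Bnip3l, the mitophagy receptor related to Bnip3, rose by 0.34 on the log2 scale (adjusted p = 0.0248), a call lost without NA4 and WT4 (adjusted p = 0.144). With the trend on GC content removed its log2 fold change was 0.17 (adjusted p = 0.184), and the call was also lost with libraries scaled to equal totals (adjusted p = 0.0632), without the variance trend and without NA2, NA4, WT1 or WT2. Mif, a cytokine, fell by 0.61 on the log2 scale (adjusted p = 0.00322). Bhlhe40, a repressor induced by hypoxia, was at 55.1, 158, 186 and 118 in NA and at 28.4, 103, 42.1 and 55.9 in WT. It was low in NA1 and high in WT2 as Vhl was, and it did not pass (log2 fold change 1.18, adjusted p = 0.0516). It was named after its values were seen, and so was Car9, a target often used as a hypoxia marker, which was at -0.13 (adjusted p = 0.681). Epo, Stc2 and Ndufa4l2 were listed at 0 in all libraries.

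**Figure D4:**
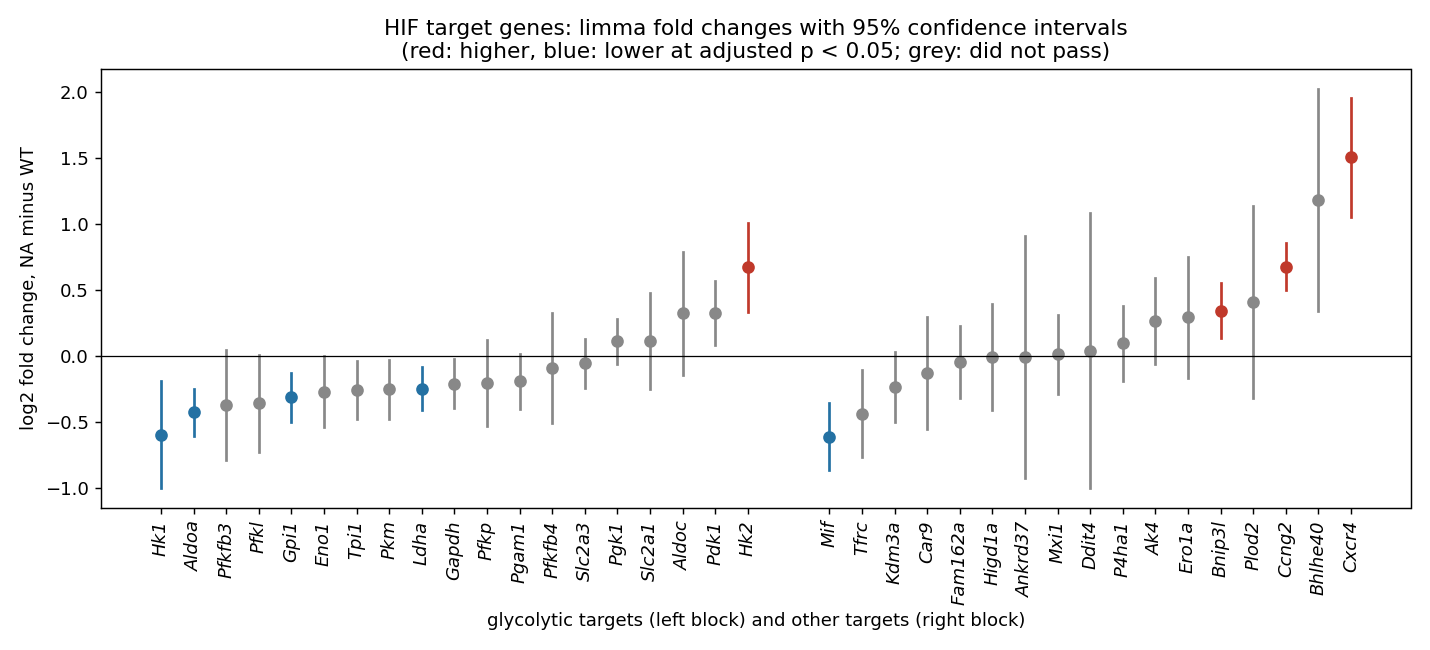
Log2 fold change, NA minus WT (points), with 95% confidence intervals from limma (lines) for the 36 HIF targets that passed the filter, ordered by value within the 19 glycolytic genes on the left and the 17 other genes on the right. Red (4 genes) and blue (5 genes) mark an adjusted p below 0.05, and the glycolytic block lies mostly below 0.

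The families around Vegfa and Bnip3 differed in their calls. Of 9 VEGF ligands and receptors, 2 passed the filter and neither was called or reached an unadjusted p below 0.05 by limma, with Vegfb at a log2 fold change of -0.03 (adjusted p = 0.918) and Vegfc at -0.10 (adjusted p = 0.825). Of 12 mitophagy genes 11 passed the filter, 2 rose and 1 fell (27.3% called beside 17.9% of all genes tested, median log2 fold change 0.05). Map1lc3b, for an LC3 protein of the autophagosome, was at 1563, 1632, 2007 and 1537 in NA against 989.9, 1456, 1035 and 1087 in WT (log2 fold change 0.57, adjusted p = 0.00592). The other 2 calls, Bnip3l with the limits given above and Gabarapl1 at -0.35 (adjusted p = 0.0403), were lost without NA4 and WT4 (adjusted p = 0.144 and 0.160).

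Genes of the sort markers were compared between the groups, with Cd34, which was not in the gate. Of these 6 genes 2 were called (33.3% beside 17.9% of all genes tested). Mean normalised counts in NA and WT were 1362 and 1197 for Kit, and 1442 and 1374 for Flt3. They were 1277 and 1548 for Ly6a, and 19.7 and 20.9 for Slamf1. Whether the cells matched the gate was not tested. Kit, Flt3 (CD135), Cd34 and Slamf1 (CD150) were not called, while Ly6a (Sca1) and Cd48 were lower in NA, at log2 fold changes of -0.28 (adjusted p = 0.0257) and -1.58 (adjusted p = 0.00711). Both calls were lost without NA4 and WT4 (adjusted p = 0.163 and 0.0675), and that of Ly6a also without any single library other than NA3 or WT2. Cd48 was at 12.2 to 22.4 normalised counts in NA and 34.2 to 83.8 in WT. Markers of other cells were given by their summed level over the list. Granulocyte markers summed to 1390.0 to 1710.0 in NA and 1750.0 to 2629 in WT, mostly Prtn3 (-0.41, adjusted p = 0.0181), with Mpo also lower (both calls lost without NA4 and WT4, adjusted p = 0.0881 and 0.143) and Elane at 0 throughout, and macrophage markers to 1723 to 1816 and 1847 to 2149, mostly Lyz2. Erythroid markers summed to 4521 to 5166 and 4626 to 4863, nearly all Car2, with Hbb-bt lower in NA (-1.99, adjusted p = 6.79e-05). B cell markers lay at 101 to 239 and 182 to 269 (Pax5 at 0), T cell markers at 0.94 to 13.9 and 7.93 to 21.6 (4 of 5 at 0), mast cell markers at 7.39 to 15.9 and 1.14 to 19.5 (2 of 4 at 0), and megakaryocyte markers at 206 to 288 and 216 to 289.9. Endothelial markers summed to 607 to 682 and 579 to 724, with Cdh5 at 0 and Tek lower in NA (-0.91, adjusted p = 0.0128), and stromal markers to 31.0 to 162 and 60.4 to 79.7. The sums do not show that some markers were high in 1 library. In WT3, S100a9 was at 158 and S100a8 at 64.9, against at most 47.9 and 21.3 in any other library. In NA3, Cxcl12 was at 101 and Lepr at 19.4, against at most 28.35 and 2.36 elsewhere. These cell markers were not used to filter libraries. Their part in the results on hypoxia-sensing genes was not tested.

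**Figure D5:**
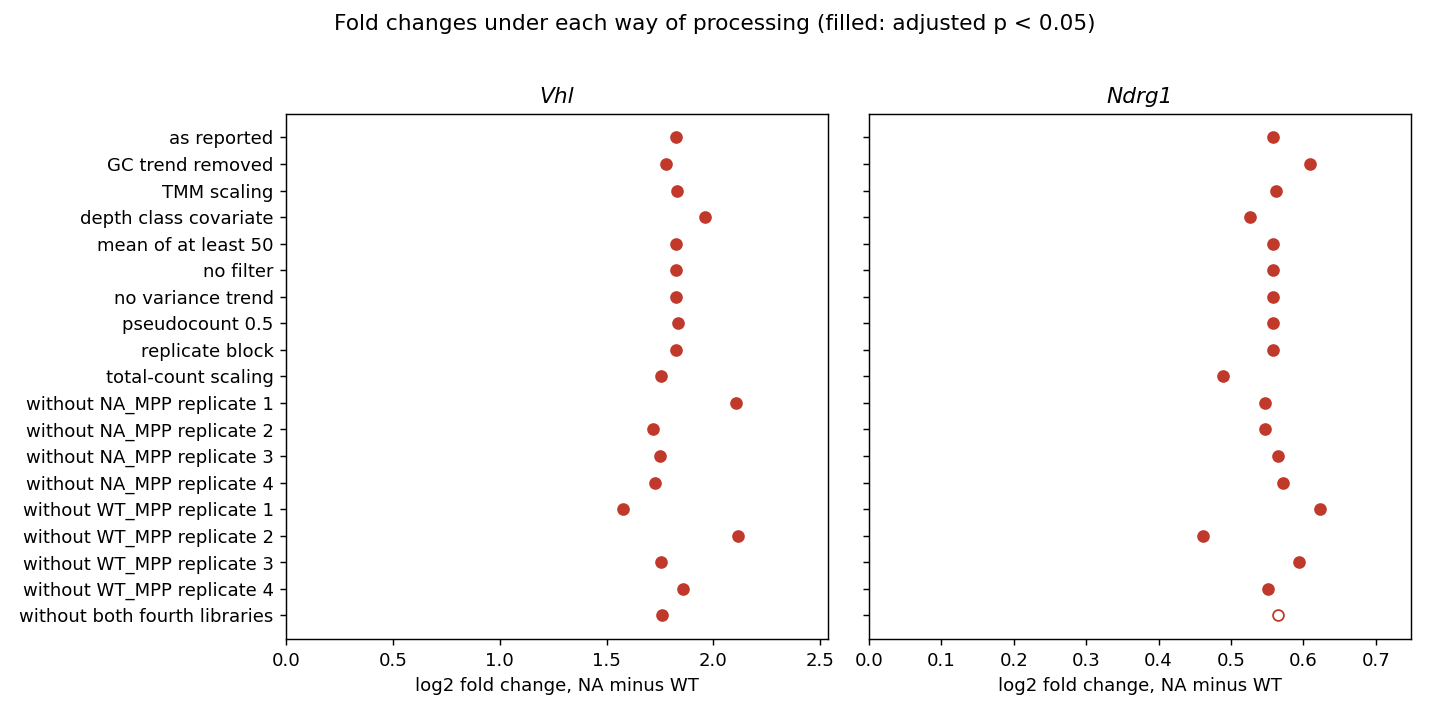
Log2 fold change of Vhl (left) and Ndrg1 (right), NA minus WT, as reported and under each alternative way of processing, with filled points at an adjusted p below 0.05. Vhl stayed between 1.58 and 2.11 with every point filled, and Ndrg1 between 0.46 and 0.62 with 1 open point, without NA4 and WT4.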

How the data were processed

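MPP libraries of 1000 sorted cells were grouped by the sample titles (4 NA, 4 WT). Per the labels, bcl2fastq, RSEM and DESeq2 were used with build mm10, in versions that, like the annotation and strand use, are not given in the sources used here. The deposited table holds a normalised signal: RSEM expected counts after division, by the authors, with a size factor for each library. In each library 98.5% to 99.1% of values up to 20.5 steps lay within 0.1 step of a whole multiple of one step (0.888 to 1.18), and value over step gave the estimated reads. The amplified cDNA carried no molecular identifiers.

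Symbols and coordinates came from GENCODE M21 (GRCm38), which named 32916 of 37980 rows, and unnamed rows held 0.779% of the summed values. The 11451 genes that reached 10 normalised counts in 4 or more libraries were tested with limma 3.58.1 (R 4.3.3, mean-variance trend) on log2(value + 1), without covariates and with Benjamini-Hochberg adjustment over all genes tested at 0.05. Fold changes are on this scale, which understates changes of low genes. The script was tested on simulated data. Tables were made with pandas 2.3.3.

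The genes and lists were chosen with earlier results of these data known. The text names the 10 genes, list members that passed the test (up to 4 in each direction, by size), and the 3 genes most like Hif1a. The length taken for levels per kilobase was chosen after values were seen. Same-numbered NA and WT libraries deviated together with correlations of 0.0131 to 0.158, not all above 0.1, so the numbers were not taken as pairs. Alternatives were other pseudocounts, filters and scalings, no trend, a replicate block, depth and GC corrections, and left-out libraries. Some list members are not reported here.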

Additional observations from a re-analysis of the deposited data

Results flagged for a closer look

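In each group of 4 libraries, the highest and the lowest value of the 10 genes were set against the rest by Dixon's ratio (gap over range, 95% critical value for 4 samples). Of 20 groups tested 2 passed, where chance gives about 1.0. Vhl in NA1 was 129 beside 271 to 291 in the other NA libraries (ratio 0.882), and without NA1 its log2 fold change was 2.11. Egln1 in NA1 was 147 beside 163 to 165 (ratio 0.858), and without NA1 its log2 fold change was -0.16 (adjusted p = 0.418 by limma). Vegfa, Egln3 and Hif1a were also lowest in NA1 among NA libraries and did not pass.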

How the results depend on the processing

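The log2 fold change of Vhl kept its direction and its call in all 18 alternatives run, and that of Ndrg1 in 17. Of the 10 genes, 2 were called under each alternative except without NA4 and WT4, where 1 was called (Vhl). Without NA4 and WT4 the HIF regulators gave 1 call, the HIF targets 5 and all genes 524, with fewer libraries in the fit. The HIF regulators gave 1 call with a mean of at least 50, which removes P4htm, and the HIF targets 5 without the variance trend. The cause was not tested for the last.

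With 1 library left out at a time, calls ranged from 2 to 2 among the 10 genes, from 2 to 3 among HIF regulators, from 5 (without NA2 or NA4) to 14 (without NA3) among HIF targets, and from 1125 (without NA4) to 2176 (without NA3) over all genes, with 1279 without WT4. Log2 fold changes that were not called changed sign: Epas1 ranged from -0.51 to 0.35, Egln2 from -0.14 to 0.091, Egln3 from -0.15 to 0.65, Vegfa from -0.14 to 0.85 and Bnip3 from -0.14 to 0.11. Egln2 was at -0.0538 with libraries scaled to equal totals, and Bnip3 at 0.0028 with depth class as a covariate. Scaling to equal totals moved the median of all genes from -0.01 to -0.08 and the higher share of calls from 56.1% (1152 of 2053) to 41.3% (925 of 2239). The GC correction used the 97.5% of tested genes with a value.

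With a replicate block, 2004 genes, 2 of the 10 genes, 2 HIF regulators and 10 HIF targets were called, with Vhl at an adjusted p of 0.000211 and Ndrg1 at 0.00926. By deviations from group means, NA1 and NA4 correlated best with the WT library of their own number (0.0874 and 0.158). NA2 and NA3 correlated best with a WT library of another number. The SE of Vhl was 0.193 with the block and 0.319 without it. Whether same-numbered libraries share more than a number was not tested. The count tests planned with edgeR and DESeq2 were not run, since the values were taken as already normalised. Depth limits Epas1, with 3 to 23 estimated reads, and the many HIF targets and VEGF genes below the filter.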
